A study of Mus musculus with 9 samples.

Results

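Genes for 8 enzymes of cholesterol synthesis were followed in mouse Reissner's membrane, the thin avascular sheet between the scala media and the scala vestibuli of the cochlea. The genes were Hmgcs1, Idi1, Fdft1, Sqle, Cyp51, Msmo1, Nsdhl and Sc5d, taken by name with earlier results of these data known. Every probe set annotated to these genes was used. They had 21 of the 45101 probe sets on the arrays, of which 15 carried enough signal to be tested, and they are 8 of 10242 genes tested. None of the 8 takes up cholesterol, so genes of lipoprotein uptake are described separately as a list.

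The membranes came from adult mice and were dissected free-hand. Dexamethasone explants were kept for 24 h with the synthetic glucocorticoid dexamethasone, incubated explants were kept for 24 h without it, and fresh membranes were extracted at once. The dose was 100 nM in the design text and in the label of dexamethasone array A, while the labels of arrays B and C type the unit as mM. Expression was read on short-oligonucleotide arrays, 3 in each of the 3 groups, which the labels letter A to C. Tissue of several membranes was pooled, and each biological sample filled 3 chips per the design text, so p-values measure only the spread between these arrays, which may be technical. Incubated against fresh asks what culture itself does, and dexamethasone against incubated asks what the steroid does to cultured membrane. All comparisons share arrays, so the values of one are not independent of the others.

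Cells build cholesterol from acetyl-CoA: the mevalonate arm makes isoprenoid units, which are joined into squalene, and the sterol arm closes squalene into lanosterol and trims it to cholesterol. The transcription factor SREBP-2, encoded by Srebf2, raises the genes of this route and of lipoprotein uptake when sterols in the endoplasmic reticulum run low, after its escort SCAP carries it to the Golgi; the INSIG proteins hold it back when sterols are plentiful. Its promoters typically combine a sterol regulatory element with CCAAT and GC boxes, the sites of the factors NF-Y and Sp1.

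The promoters of the members are shown because the members moved together. In RefSeq's promoter windows (build GRCm38.p6, 250 bases before to 50 after each gene's start), 6 of the 8 genes had an entry, and the 140 bases before the start are printed for each, 5′ to 3′ on the gene's own strand, with matches to 3 motifs in capitals. Hmgcs1 lies at chr13:119690211-119690350 on the + strand, Idi1 at chr13:8885466-8885605 on the + strand, Cyp51 at chr5:4104698-4104837 on the - strand, Msmo1 at chr8:64733579-64733718 on the - strand, Nsdhl at chrX:72918381-72918520 on the + strand and Sc5d at chr9:42264301-42264440 on the - strand.
Hmgcs1: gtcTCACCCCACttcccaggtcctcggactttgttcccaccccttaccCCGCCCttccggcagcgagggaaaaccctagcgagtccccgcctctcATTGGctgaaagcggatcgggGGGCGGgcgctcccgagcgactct
Idi1: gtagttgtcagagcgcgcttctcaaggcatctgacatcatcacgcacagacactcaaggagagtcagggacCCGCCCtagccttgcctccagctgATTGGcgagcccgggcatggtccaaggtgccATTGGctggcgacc
Cyp51: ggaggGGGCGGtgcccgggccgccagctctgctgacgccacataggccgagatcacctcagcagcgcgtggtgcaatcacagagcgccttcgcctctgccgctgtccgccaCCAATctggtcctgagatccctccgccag
Msmo1: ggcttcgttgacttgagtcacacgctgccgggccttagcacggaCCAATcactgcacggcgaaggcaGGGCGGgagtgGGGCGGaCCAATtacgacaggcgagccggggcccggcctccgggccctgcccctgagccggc
Nsdhl: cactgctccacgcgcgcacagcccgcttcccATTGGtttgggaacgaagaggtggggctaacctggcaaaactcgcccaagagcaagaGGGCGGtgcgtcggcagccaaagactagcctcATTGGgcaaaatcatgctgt
Sc5d: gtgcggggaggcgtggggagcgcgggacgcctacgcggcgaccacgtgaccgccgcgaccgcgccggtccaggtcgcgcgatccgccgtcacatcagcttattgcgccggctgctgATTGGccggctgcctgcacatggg

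The motifs were the sterol regulatory element TCACNCCAC, the CCAAT box, which reads ATTGG on the opposite strand, and the GC box GGGCGG, which shows as CCGCCC on the opposite strand, searched on both strands of the whole 300-base window, and no matches overlapped. A CCAAT box stood in all 6 windows, against 36.88% of the windows of genes tested and 37.41% of all 32851 windows. A GC box also stood in all 6, against 63.62% of windows of genes tested and 35.66% of all windows; the 4 of Sc5d lie farther upstream, across the start or after it, so none is printed in capitals. The sterol regulatory element in these exact letters stood in 1 of the 6, Hmgcs1, at -137 to -129 from its start, against 1.1% of windows of genes tested. Among 14 windows of the other genes of the mevalonate and sterol arms, 71.43% had a CCAAT box, 71.43% had a GC box and 0 had the sterol regulatory element. These matches describe letters only.

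Values below are linear array signals, scaled by the authors to the same overall level on each array. Changes are log2 differences of group means of signal plus 32, ± SE, from limma fitted over 18913 probe sets, and a change was called at a Benjamini-Hochberg adjusted p under 0.05. A gene with several probe sets is represented by its brightest tested one, and levels are not compared between probe sets. Signals under 200 were treated as below the working floor.

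After 24 h in culture the members were higher than in fresh membrane, and most were lower with dexamethasone than without it. Against fresh arrays, 8 of 8 were called higher on incubated arrays, where 36.0% of all genes tested were called higher. Against incubated arrays, 7 of 8 were called lower on dexamethasone arrays, where 28.7% of all genes tested were called lower; the exception was Hmgcs1. The members' median change was 1.24 for incubated against fresh, beside a median of -0.04 over all genes tested, whose 10th to 90th percentiles ran from -1.20 to 0.86. For dexamethasone against incubated the members' median was -0.52, beside -0.03 over all genes and percentiles of -0.48 to 0.43. Because the members were chosen with earlier results of these data known, these counts and medians partly restate that choice. The other 11 tested genes of the mevalonate and sterol arms had medians of 0.21 on incubation and -0.17 with dexamethasone.

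**Figure D1:**
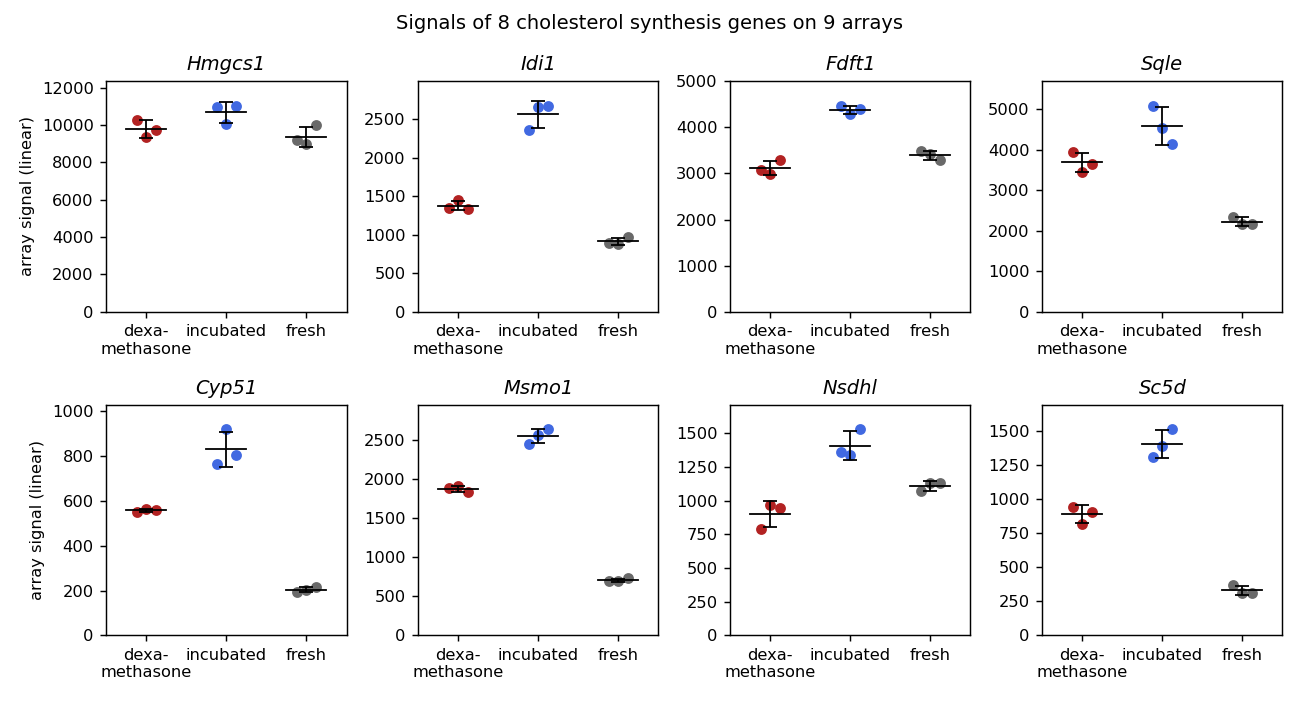
Signals of the 8 genes, 1 panel per gene, on dexamethasone, incubated and fresh arrays (linear axes from 0). Points are single arrays, the horizontal line is the mean of 3 arrays and the bar is ± 1 SD; incubated arrays are the highest group in every panel, with Hmgcs1 the least separated.

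Idi1, the mevalonate arm isomerase that interconverts the isoprenoid building blocks, had signals of 1343, 1446 and 1340.1 on dexamethasone arrays, 2357, 2658 and 2678 on incubated arrays, and 898, 880.4 and 968 on fresh arrays. The 3 groups did not overlap: incubated arrays were highest, fresh arrays lowest and dexamethasone arrays lay between them. Idi1 rose by 1.45 ± 0.065 in incubated against fresh (adjusted p = 6.73e-10) and fell by 0.88 ± 0.065 with dexamethasone against incubated (adjusted p = 4.86e-07), the largest dexamethasone change of the 8. Its second probe set rose by 1.58 ± 0.12 on incubation (adjusted p = 7.37e-08) and fell by 0.55 ± 0.12 with dexamethasone (adjusted p = 0.00192).

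Hmgcs1 encodes the cytosolic HMG-CoA synthase, which makes the substrate of the committed step of the pathway. Its brightest probe set read 10289, 9356 and 9745 on dexamethasone arrays, 10943, 10037 and 11028 on incubated arrays, and 9184, 8957 and 9982 on fresh arrays. Incubated arrays lay just above fresh arrays, while dexamethasone arrays overlapped both. The rise on incubation was the smallest of the 8, at 0.19 ± 0.057 (adjusted p = 0.0097), and it was not called with quantile normalization (0.08, adjusted p = 0.191). The dexamethasone change was -0.12 ± 0.057 (adjusted p = 0.0879), with a 95% confidence interval of -0.25 to 0.00089.

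The other 3 tested probe sets of Hmgcs1 moved more. The third brightest read 1853, 2099.9 and 1994 on dexamethasone arrays, 3280.4, 2805 and 3048 on incubated arrays, and 1937, 2289 and 2061 on fresh arrays. Its incubated arrays stood apart from both other groups, which overlapped. All 3 rose on incubation, by 0.45 to 0.58 (adjusted p at most 0.0129), and fell with dexamethasone, by 0.44 to 0.61 (adjusted p at most 0.0181). With the tested probe sets of the gene averaged, Hmgcs1 was called lower with dexamethasone (-0.44, adjusted p = 2e-05), and without incubated array B so was the brightest probe set (-0.17, adjusted p = 0.0335).

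**Figure D2:**
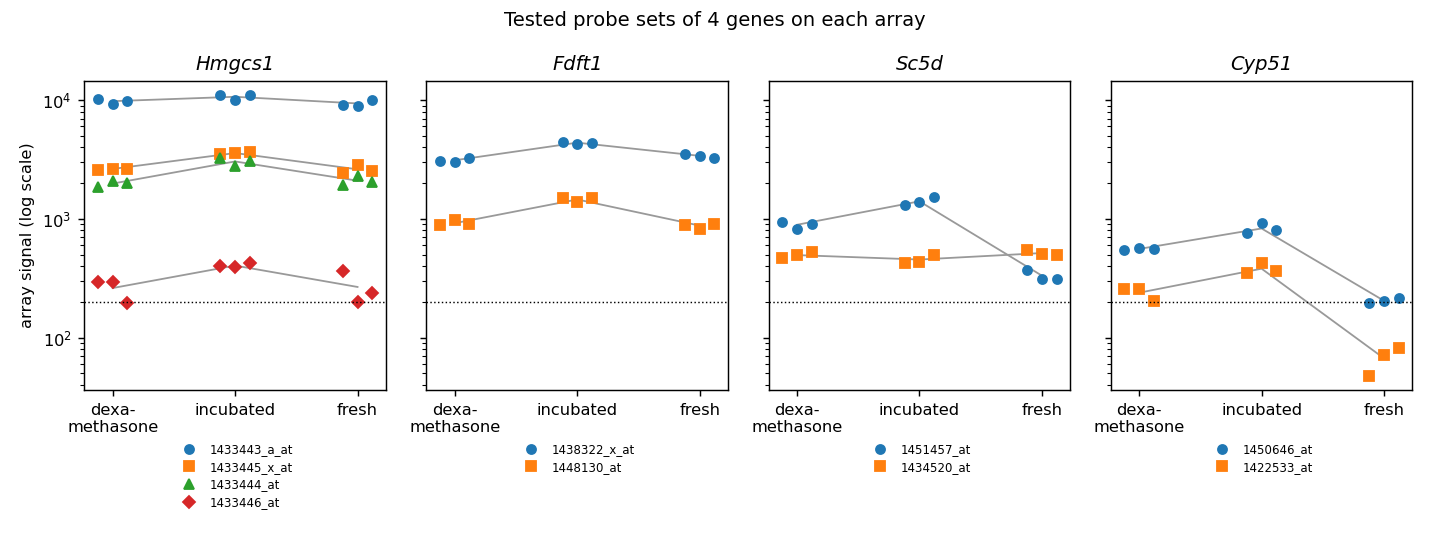
Signal of every tested probe set of Hmgcs1, Fdft1, Sc5d and Cyp51 on each array (log axis), with dexamethasone, incubated and fresh arrays from left to right; grey lines join group means and the dotted line is the floor of 200. All but one of these probe sets peak on incubated arrays: the dimmer set of Sc5d (squares) stays between 428 and 543.

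Fdft1 and Sqle handle squalene. Fdft1, squalene synthase, which joins 2 farnesyl units, read 3066, 2997 and 3284 on dexamethasone arrays, 4469, 4288 and 4390.3 on incubated arrays, and 3485, 3412 and 3285 on fresh arrays. Incubated arrays were highest, and dexamethasone and fresh arrays met almost end to end without overlapping. Fdft1 rose by 0.37 ± 0.049 on incubation (adjusted p = 1.81e-05) and fell by 0.49 ± 0.049 with dexamethasone against incubated (adjusted p = 5.38e-06).

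This probe set is of a kind (_x_at) that may hybridize to several transcripts. A second, dimmer Fdft1 probe set read 885, 971 and 903 on dexamethasone arrays, 1492, 1381 and 1497 on incubated arrays, and 895, 828 and 908 on fresh arrays, so only incubated arrays stood apart. It rose by 0.71 ± 0.065 on incubation (adjusted p = 4.64e-07) and fell by 0.65 ± 0.065 with dexamethasone (adjusted p = 5.35e-06).

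Sqle, squalene epoxidase, which commits squalene to sterol synthesis, read 3947, 3462 and 3665 on dexamethasone arrays, 5092, 4529.9 and 4156 on incubated arrays, and 2351, 2165 and 2173 on fresh arrays. No groups overlapped, and dexamethasone arrays lay closer to incubated than to fresh arrays. Sqle rose by 1.03 ± 0.073 on incubation (adjusted p = 4.68e-08) and fell by 0.31 ± 0.073 with dexamethasone (adjusted p = 0.00349), the smallest called dexamethasone change of the 8.

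In the sterol arm, Cyp51, Msmo1 and Sc5d had the largest rises in culture. Cyp51, the lanosterol demethylase, read 549, 564 and 561 on dexamethasone arrays, 765, 919 and 805 on incubated arrays, and 195, 203 and 215 on fresh arrays. The groups did not overlap, and fresh arrays lay at the floor. Cyp51 rose by 1.86 ± 0.085 on incubation (adjusted p = 7.7e-10) and fell by 0.54 ± 0.085 with dexamethasone (adjusted p = 0.00019).

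On a dimmer Cyp51 probe set all fresh arrays lay under 200, at 47.6, 71.2 and 81.8, beside 257.6, 256.5 and 202 on dexamethasone arrays and 349.9, 428 and 364 on incubated arrays. Measured against the floor, this was at least 1.9-fold higher in incubated than in fresh arrays (adjusted p = 5.99e-08), and it fell by 0.61 ± 0.15 with dexamethasone (adjusted p = 0.00481). This dimmer probe set passed the filter only through explant arrays, so it could hardly be called lower on incubation.

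Msmo1 is the methylsterol monooxygenase, which oxidizes methyl groups of the sterol ring for removal. Its tested probe set read 1888, 1914 and 1839.7 on dexamethasone arrays, 2459, 2572 and 2641 on incubated arrays, and 694, 693.9 and 733 on fresh arrays. These groups were far apart relative to their spread, with dexamethasone arrays nearer to incubated arrays. Msmo1 rose by 1.81 ± 0.053 (adjusted p = 1.32e-11) on incubation and fell by 0.44 ± 0.053 with dexamethasone (adjusted p = 2.52e-05).

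Nsdhl, a sterol dehydrogenase that acts after Msmo1 in the removal of the same methyl groups, read 793, 969 and 942 on dexamethasone arrays, 1362, 1335 and 1527 on incubated arrays, and 1067, 1128 and 1130 on fresh arrays. Incubated arrays were highest and dexamethasone arrays, not fresh ones, were lowest, with no overlap. Nsdhl rose by 0.33 ± 0.08 on incubation (adjusted p = 0.00211) and fell by 0.63 ± 0.08 with dexamethasone (adjusted p = 3.79e-05).

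Sc5d, a sterol desaturase near the end of the route, read 947, 819 and 909 on dexamethasone arrays, 1309, 1393 and 1515 on incubated arrays, and 371, 312.5 and 314 on fresh arrays. The groups did not overlap, and the order was incubated, dexamethasone, fresh. Sc5d had the largest rise of the 8 on incubation, 1.98 ± 0.087 (adjusted p = 5.15e-10), and fell by 0.64 ± 0.087 with dexamethasone (adjusted p = 6.18e-05).

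A second tested probe set of Sc5d went another way. It read 464, 493 and 529 on dexamethasone arrays, 428, 437 and 498 on incubated arrays, and 543, 508 and 496 on fresh arrays, and all groups overlapped. Its changes were -0.17 ± 0.085 on incubation (adjusted p = 0.0844, 95% confidence interval -0.36 to 0.013) and 0.12 ± 0.085 with dexamethasone (adjusted p = 0.266, interval -0.07 to 0.30). The calls for Sc5d thus rest on 1 of its 2 tested probe sets.

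Over the members' 15 tested probe sets, 14 were called higher on incubation, where 35.0% of all probe sets tested were called higher, and 13 were called lower with dexamethasone, where 25.5% of all were. The second probe set of Sc5d was called in neither comparison and the brightest of Hmgcs1 not with dexamethasone. The 6 probe sets left out, of Hmgcs1, Fdft1, Cyp51, Msmo1 and Sc5d, stayed under a signal of 200.

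**Figure D3:**
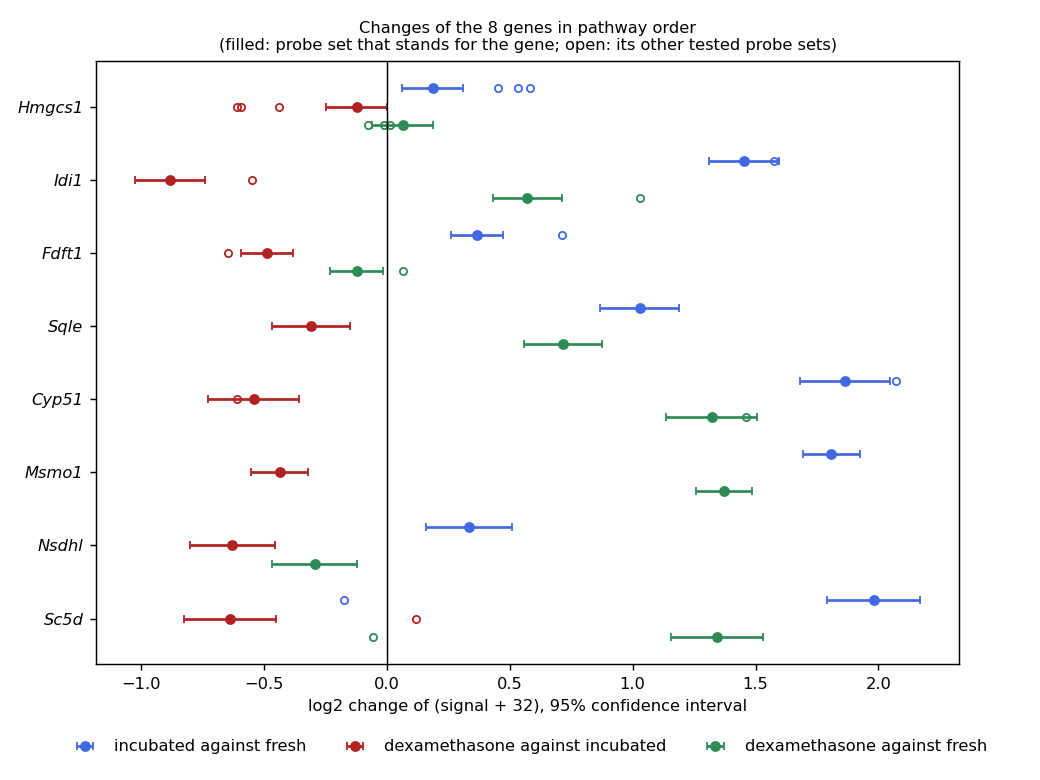
Log2 change of signal plus 32 (x axis) for each gene in pathway order, for incubated against fresh (blue), dexamethasone against incubated (red) and dexamethasone against fresh (green). Filled points with 95% confidence intervals are the probe sets that stand for the genes and open points are their other tested probe sets; all filled blue points lie above 0 and all filled red points below it.

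How far dexamethasone arrays still stood from fresh arrays differed among the members. In dexamethasone against fresh, 5 of 8 were called higher (35.4% of all genes tested) and 2 lower (42.7% of all), with a median of 0.65 beside -0.07 over all genes. The 5 were Idi1, Sqle, Cyp51, Msmo1 and Sc5d, which rose by 0.57 ± 0.065 (Idi1) to 1.37 ± 0.053 (Msmo1), with adjusted p at most 3.94e-06. These were also the 5 with the largest rises on incubation, a relation partly set by the fresh arrays that both comparisons use.

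Hmgcs1, Fdft1 and Nsdhl lay near or under their fresh level. Hmgcs1 differed by 0.06 ± 0.057 (adjusted p = 0.321, 95% confidence interval -0.06 to 0.19). Nsdhl fell by 0.29 ± 0.08 (adjusted p = 0.00481). Fdft1 fell by 0.12 ± 0.049 (adjusted p = 0.0361), a call that was lost when dexamethasone array A or B or fresh array A or B was left out (adjusted p 0.0845 to 0.128), and its second probe set gave 0.07 ± 0.065 (adjusted p = 0.365).

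As a description over the 9 arrays, the centred log2 signals averaged over the 8 genes were 0.03 to 0.05 on dexamethasone arrays, 0.52 to 0.57 on incubated arrays and -0.61 to -0.56 on fresh arrays. Each gene's Pearson's r with the mean of the other 7 was 0.952 to 0.976 for Idi1, Sqle, Cyp51, Msmo1 and Sc5d, 0.76 for Hmgcs1, 0.631 for Fdft1 and 0.395 for Nsdhl. The points are arrays of 3 groups, so these r values mainly describe the order of the groups. The tested genes outside the lists most like the members' mean were Dipk1a (r = 0.999), Cops5 (r = 0.998), a subunit of the COP9 signalosome, the chemokine gene Ccl5 (r = 0.9975), Ctsc (r = 0.9967), which encodes cathepsin C, and the immune receptor gene Cd244a (r = 0.9962). Such likeness was common: 484 of 10148 genes, or 4.77%, had r over 0.95.

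Arrays were similar within groups, with Pearson's r of 0.992 to 0.993 and no identical pair, but groups differed in RNA measures. The ratio of 3′ to 5′ actin signal was 1.79 to 1.96 on dexamethasone arrays, 1.86 to 1.96 on incubated arrays and 3.97 to 4.26 on fresh arrays. The Gapdh ratio was 5.02 to 5.47, 3.46 to 3.88 and 6.91 to 7.53 in the same order. Hybridization controls, which are added in equal amounts, had geometric means of 2047 to 2182 on dexamethasone arrays, 1453 to 1567 on incubated arrays and 1789 to 1942 on fresh arrays. Scaled to these controls, the median of all genes shifted by 0.32 in incubated against fresh and by -0.47 in dexamethasone against incubated. Higher calls then made up 69.2% of all calls in incubated against fresh, where they were 46.9% with the deposited scaling, and 4.83% in dexamethasone against incubated, where they were 43.7%. The members' median relative to that of all genes was 1.28 and 1.29 under the deposited and the control scaling on incubation, and -0.49 and -0.50 with dexamethasone. Scaling shifts all genes of an array nearly alike, so this difference could hardly change and tests nothing. The part of RNA quality in the members' changes was not tested.

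Cell type markers also moved with the groups, and in pooled tissue fewer cells of a type and less RNA per cell cannot be told apart. The membrane has an epithelial layer. The 7 epithelial markers summed to 81452 to 85399 on dexamethasone arrays, 70645 to 72723 on incubated arrays and 28974 to 30207 on fresh arrays. Of these, 7 of 7 were higher on incubation, where 36.0% of all genes were called higher. With dexamethasone 6 were higher (22.3% of all genes) and 1 lower (28.7% of all genes) than in incubated arrays. Scaling to the hybridization controls gave 0 higher and 5 lower, where 3.96% of all genes were called higher and 78.2% lower. Fibrocyte markers of the spiral ligament and limbus summed to 1421 to 1579, 1424 to 1550 and 56834 to 58543 in the same order, and 5 of 5 fell on incubation. Neuron markers summed to 134 to 184 on dexamethasone arrays, 80 to 114 on incubated arrays and 16133 to 17164 on fresh arrays, and 5 of 5 fell. Transcripts of neurons and fibrocytes were thus far more abundant on fresh arrays than on either kind of explant array. The neuron markers, and Otor of the fibrocyte list, passed the filter only through fresh arrays, so they could hardly be called higher on incubation. Among all genes 40.7% were called lower on incubation.

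Markers of strial marginal cells (4302 to 4496, 4637 to 4793 and 22645 to 23915 on dexamethasone, incubated and fresh arrays) fell on incubation in 4 of 4, and those of supporting cells (1144 to 1168, 667 to 773 and 9186 to 9514) in 4 of 4 tested. Macrophage markers summed to 7034 to 7215, 5526 to 5945 and 4792 to 4974, with 4 of 7 higher and 1 lower on incubation and the same split with dexamethasone against incubated, which the control scaling turned to 1 higher and 3 lower. Myelin markers summed to 8054 to 8419, 6327 to 6598 and 6341 to 6381, with 2 of 3 tested higher and 1 lower in each of these comparisons. The control scaling gave 0 higher and 2 lower with dexamethasone. Of all genes, 36.0% were called higher and 40.7% lower on incubation. With dexamethasone 22.3% of all genes were called higher and 28.7% lower, and 3.96% and 78.2% with the control scaling. The red blood cell sums were 2 to 5, 90 to 136 and 1097 to 1196, and Alas2, the only tested marker of the list, fell on incubation; with dexamethasone both group means were under the floor. No marker list except the epithelial one moved upward on incubation in all its tested members. The strial marker Kcne1, the supporting cell marker Sox2 and Alas2 passed the filter only through fresh arrays, so they could hardly be called higher. The macrophage marker Cd68 passed it only through explant arrays, so it could hardly be called lower on incubation. With dexamethasone against incubated, counting tested markers with at least 1 group mean over the floor, 2 of 4 fibrocyte markers were higher and 1 lower (2 and 2 with the control scaling), 2 of 3 strial markers were lower (3 with the control scaling), and 3 of 3 supporting cell markers were higher (2 higher and 1 lower with the control scaling). The 5 tested neuron markers were under the floor in both groups. The lowest group mean of any tested marker was 3.43, of Alas2 on dexamethasone arrays. What these shifts contribute to the members' changes was not tested.

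Of the other 11 tested genes of the same 2 arms, 5 were higher on incubation (Mvd, Fdps, Lss, Hsd17b7 and Ebp) and 2 lower (Tm7sf2 and Lbr), with a median of 0.21. Among all genes 36.0% were called higher and 40.7% lower there. With the control scaling 7 were higher and 0 lower, where 53.6% of all genes were called higher and 23.8% lower. With dexamethasone 4 were lower (Pmvk, Fdps, Hsd17b7 and Ebp) and 2 higher (Ggps1 and Lbr), with a median of -0.17. Among all genes 28.7% were called lower and 22.3% higher in that comparison. With the control scaling 10 were lower, Lbr among them, and 0 higher, where 78.2% of all genes were called lower and 3.96% higher. The 2 other tested probe sets of Ggps1 disagreed on incubation, with changes of -0.25 (adjusted p = 0.0316) and 0.42 (adjusted p = 0.00242).

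Fdps and Hsd17b7 had the members' pattern. Fdps, farnesyl diphosphate synthase, read 197.7, 218 and 216 on dexamethasone arrays, 379.6, 344 and 392 on incubated arrays, and 104, 123 and 127 on fresh arrays. It was at least 1.86-fold higher in incubated than in fresh arrays (adjusted p = 9.25e-08) and fell by 0.73 ± 0.11 with dexamethasone (adjusted p = 0.000129). Fdps passed the filter only through explant arrays, so it could hardly be called lower on incubation. Hsd17b7, a sterol ketoreductase, rose by 1.33 ± 0.076 (adjusted p = 5.77e-09) and fell by 0.38 ± 0.076 with dexamethasone (adjusted p = 0.00118).

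Lss, lanosterol synthase, had probe sets that disagreed. The brighter rose by 0.95 ± 0.11 on incubation (adjusted p = 4.54e-06) and changed by -0.27 ± 0.11 with dexamethasone (adjusted p = 0.0511), while the other fell by 0.51 ± 0.10 (adjusted p = 0.000609) and rose by 0.76 ± 0.10 (adjusted p = 6.33e-05). Ebp, a sterol isomerase, rose by 0.18 ± 0.054 (adjusted p = 0.00998) and fell by 0.54 ± 0.054 with dexamethasone (adjusted p = 5.71e-06). Ggps1, which draws farnesyl units toward protein prenylation, changed by -0.10 ± 0.11 on incubation (adjusted p = 0.399) and rose by 0.61 ± 0.11 with dexamethasone (adjusted p = 0.000432). The rise was not called with the control scaling (0.13, adjusted p = 0.254). Its other tested probe sets changed by 0.28 (adjusted p = 0.0246) and 0.17 (adjusted p = 0.178) with dexamethasone.

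Lbr, a lamin receptor with sterol reductase activity, fell by 0.43 ± 0.066 on incubation (adjusted p = 6.16e-05) and rose by 0.23 ± 0.066 with dexamethasone (adjusted p = 0.0122). With the deposited scaling it was thus opposite to the members in both. With the control scaling its incubation change was not called (-0.10), and it was called lower with dexamethasone (-0.25, adjusted p = 0.017). Tm7sf2, another sterol reductase, fell by 0.38 ± 0.095 on incubation (adjusted p = 0.00277), which was not called with the control scaling (-0.07). Pmvk, a kinase of the mevalonate arm, fell by 0.47 ± 0.099 with dexamethasone (adjusted p = 0.00164).

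**Figure D4:**
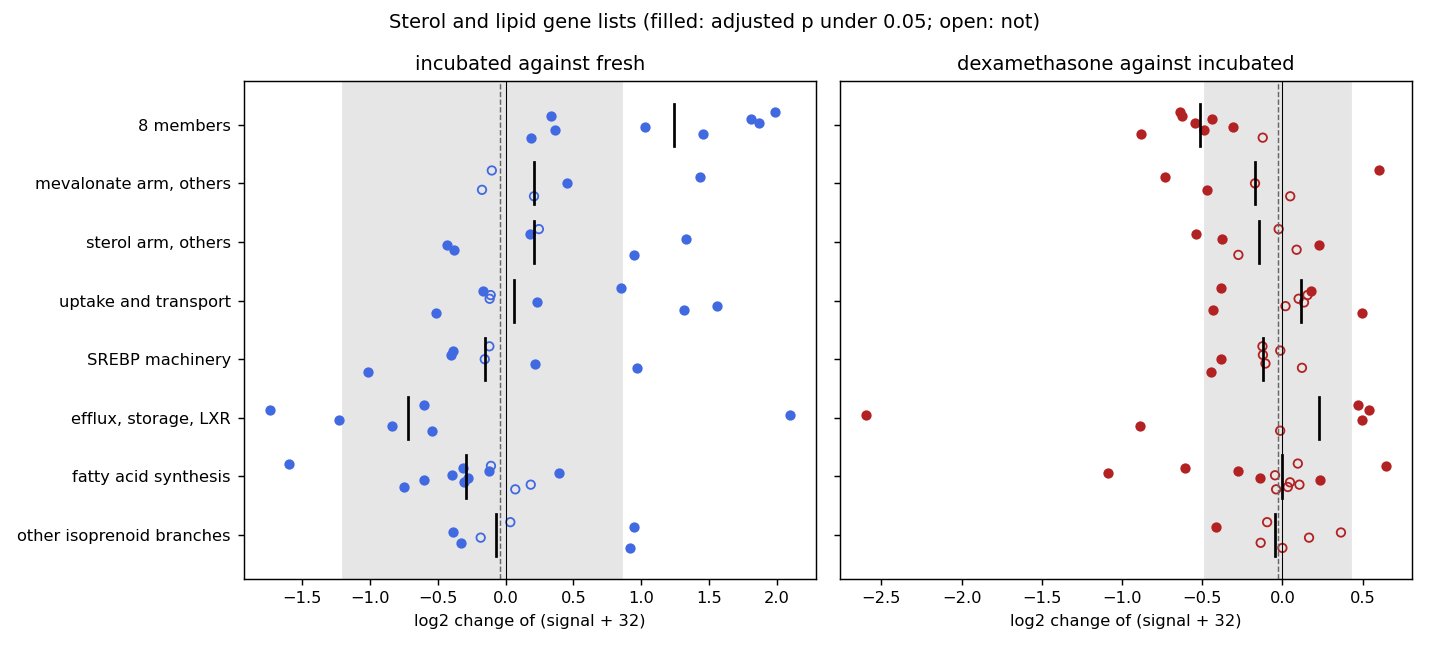
Log2 change of signal plus 32 for each tested gene of the members and of 7 lists of sterol and lipid genes, for incubated against fresh (left) and dexamethasone against incubated (right). Filled points passed the test and open points did not, black ticks are medians, and the grey band and dashed line are the 10th to 90th percentiles and the median of all genes tested; points of genes under the floor in 1 group are fitted values. The members' medians, 1.24 and -0.52, lie outside the bands of -1.20 to 0.86 and -0.48 to 0.43.

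Genes of lipoprotein uptake and sterol transport into the cell formed the next list. On incubation 4 of 8 tested were higher (36.0% of all genes) and 2 lower (40.7% of all genes). With the control scaling 6 were higher (53.6% of all genes) and 0 lower (23.8% of all genes). With dexamethasone 2 were higher (22.3% of all genes), 0 with the control scaling, and 2 lower (28.7% of all genes), 7 with the control scaling (78.2% of all genes). Scarb1, the receptor for high-density lipoprotein, read 976, 943 and 999 on dexamethasone arrays, 990, 929 and 959 on incubated arrays, and 325, 281 and 308 on fresh arrays. Dexamethasone and incubated arrays overlapped and both lay well above fresh arrays. Scarb1 rose by 1.56 ± 0.071 on incubation (adjusted p = 7.96e-10), while its dexamethasone change was 0.02 ± 0.071 (adjusted p = 0.84).

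Vldlr, a lipoprotein receptor, went opposite to the members. It fell by 0.51 ± 0.078 on incubation (adjusted p = 5.97e-05) and rose by 0.49 ± 0.078 with dexamethasone (adjusted p = 0.000203), and its other 3 tested probe sets were called in the same directions; with the control scaling neither change of the brightest was called (-0.18 and 0.01). Lipa, the lysosomal lipase that frees cholesterol from lipoproteins, rose by 0.85 ± 0.084 (adjusted p = 1e-06) and fell by 0.38 ± 0.084 with dexamethasone (adjusted p = 0.00215). Lrp8, another receptor of the family, was at least 1.09-fold higher in incubated than in fresh arrays (adjusted p = 9.74e-06). On dexamethasone arrays it was at least 1.09-fold lower than on incubated arrays (adjusted p = 0.0424). Lrp8, which the counts above include, passed the filter only through incubated arrays, so hardly another direction could be called. Stard4, a sterol carrier, rose by 0.18 ± 0.068 with dexamethasone (adjusted p = 0.0394), which the control scaling turned to -0.29. The 2 other tested probe sets of Stard4 were called the opposite way with dexamethasone, at -0.75 ± 0.11 (adjusted p = 0.000157) and -0.44 ± 0.13 (adjusted p = 0.0125). On incubation the probe set standing for Stard4 changed by -0.16 ± 0.068 (adjusted p = 0.0423) and one of the others by 0.85 ± 0.11 (adjusted p = 1.9e-05), so the direction for Stard4 differed with the probe set. The probe sets that stand for Lss, Hsd17b7, Scarb1, Vldlr and Lipa are of the _s_at or _x_at kind.

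Among 7 genes that control the pathway, 2 were higher (36.0% of all genes) and 3 lower (40.7% of all genes) on incubation. With the control scaling 3 were higher (53.6% of all genes) and 1 lower (23.8% of all genes). With dexamethasone 2 were lower (28.7% of all genes), and 7 with the control scaling (78.2% of all genes). Srebf2 read 289.7, 313 and 264 on dexamethasone arrays, 295, 248 and 246 on incubated arrays, and 127, 123 and 106 on fresh arrays. Both explant groups lay above fresh arrays and overlapped each other. Srebf2 was at least 1.32-fold higher in incubated than in fresh arrays (adjusted p = 6.73e-06), and its dexamethasone change was 0.12 ± 0.12 (adjusted p = 0.4). Srebf2, which the counts above include, passed the filter only through explant arrays, so it could hardly be called lower on incubation. An untested Srebf2 probe set stayed under 200, with means of 148 on incubated and 150 on fresh arrays. Scaled to the hybridization controls, the dexamethasone change of Srebf2 was -0.32 (adjusted p = 0.0383).

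Srebf1, whose products include the SREBP-1 forms that drive fatty acid synthesis, read 2979, 2699.6 and 3030.3 on dexamethasone arrays, 4076, 3774 and 4041 on incubated arrays, and 8035, 7846 and 8185 on fresh arrays. The order was fresh, incubated, dexamethasone with no overlap, unlike any member. Srebf1 fell by 1.01 ± 0.054 on incubation (adjusted p = 2.9e-09) and by 0.45 ± 0.054 with dexamethasone (adjusted p = 2.4e-05). Scap, the SREBP escort, rose by 0.22 ± 0.077 on incubation (adjusted p = 0.0215) and changed by -0.11 ± 0.077 with dexamethasone (adjusted p = 0.269).

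Of the SREBP retention genes, Insig1 changed by -0.15 ± 0.11 on incubation (adjusted p = 0.217) and fell by 0.38 ± 0.11 with dexamethasone (adjusted p = 0.0105). Insig2 fell by 0.40 ± 0.09 on incubation (adjusted p = 0.00128; not called with the control scaling, at -0.07, or in 1 of its 2 other probe sets, at -0.13) and changed by -0.12 ± 0.09 with dexamethasone (adjusted p = 0.278). Mbtps1, a protease that cuts SREBPs in the Golgi, fell by 0.38 ± 0.053 on incubation (adjusted p = 2.36e-05), also not called with the control scaling.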

How the data were processed

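Each probe set had 1 deposited value, a linear intensity that the authors had brought to a common overall level (target 500 across an array's probe sets) with no further normalization, per the labels. The labels' protocols give 2 amplification rounds by in vitro transcription; the software that summarised probes is not given in the sources used here. Probe sets were named through the platform annotation, with symbols updated by gene ID.

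Probe sets were tested where at least 3 of the 9 arrays reached 200, leaving out control probe sets, as the log2 of signal plus 32 computed from the deposited intensities, in limma 3.58.1 (R 4.3.3) with 1 mean per group over all 9 arrays, eBayes with an intensity trend and Benjamini-Hochberg adjustment over 18913 probe sets. A gene under 200 in a whole group was given as a bound against 200. A gene that passed only through the group where it is high could hardly be called lower there. The fit was tested on simulated data.

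Members and lists were chosen with earlier results of these data known. Named were all members, the SREBP genes, up to 4 genes per list with the smallest adjusted p in each of the comparisons incubated against fresh and dexamethasone against incubated (some are given by count alone), and the 5 genes most like the members' mean; genes of the lists without a probe set in the annotation are not analysed here. The second probe sets described were taken for every member that has them. Alternatives were quantile normalization, median centring, scaling to the hybridization controls, pseudocounts of 1 and 100, eBayes with no trend, a fit to the 2 compared groups, no filter, floors of 100 and 400, the mean over probe sets, no _s_at or _x_at probe sets, each array left out, and the replicate letter as a block.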

Additional observations from a re-analysis of the deposited data

How the results depend on the processing

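Over 23 alternative settings the direction and side of the threshold held for 183 of 184 member results in incubated against fresh, 179 of 184 in dexamethasone against incubated and 175 of 184 in dexamethasone against fresh. The count of members higher on incubation was 7 to 8, and that of members lower with dexamethasone against incubated 7 to 8. The exceptions were Hmgcs1 and Fdft1. Hmgcs1 with dexamethasone against incubated was also called lower with quantile normalization (-0.18, adjusted p = 0.0125) and with scaling to the hybridization controls (-0.61, adjusted p = 1.31e-06). Under the control scaling 78.2% of all genes were called lower, and the median change of all genes was -0.50. Fdft1 in dexamethasone against fresh was reversed to 0.066 without _s_at and _x_at probe sets, where another probe set stands for the gene. The members' median on incubation was 1.24, and 1.58 with scaling to the hybridization controls (also with the replicate block), 0.97 with the mean over a gene's probe sets, and 1.22 to 1.26 with each array left out. With dexamethasone against incubated it was -0.52, and -0.99 with control scaling (also with the replicate block), -0.59 without _s_at and _x_at probe sets, and -0.54 to -0.49 with each array left out. In dexamethasone against fresh it was 0.65, and 0.49 with control scaling (also with the replicate block). There the count of members called lower was 2, and 1 with median centring, no filter, eBayes without the trend, the mean over probe sets or no _s_at and _x_at probe sets, and 1 to 2 with each array left out. The labels do not say whether the array letters pair the samples. Same-letter arrays of different groups had r of -0.06 to 0.16 between deviations from group means, 1 of 9 over 0.1. Arrays of other letters had r of -0.16 to 0.15. With 3 arrays per group these values cannot settle whether samples were paired. The replicate block changed no member call with the deposited scaling. Each letter occurs once per group, so the block could not change the medians (1.24 on incubation). Control scaling moved the counts of most lists. Signals near the floor, such as Cyp51 on fresh arrays, limit what can be said of low levels.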

Other observations

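Of 6 tested genes of sterol export and storage, 1 was higher and 5 lower on incubation, where 40.7% of all genes were called lower; with control scaling 1 was higher and 4 lower, where 23.8% of all genes were. With dexamethasone against incubated, of the 5 with a group mean over the floor, 2 were higher (0 with control scaling) and 2 lower (3 with control scaling). Among all genes 22.3% were called higher and 28.7% lower there, and 3.96% and 78.2% with control scaling. Ch25h, which makes an oxysterol that suppresses SREBP processing, read 59.3, 111 and 87.7 on dexamethasone arrays, 631, 625 and 763 on incubated arrays, and 114, 122 and 165 on fresh arrays. Incubated arrays alone lay above the floor. Ch25h was at least 3.37-fold higher in incubated than in fresh arrays (adjusted p = 1.67e-07). On dexamethasone arrays it was at least 3.37-fold lower than on incubated arrays (adjusted p = 1.74e-07). Ch25h passed the filter only through incubated arrays, so hardly another direction could be called. Abcg1, a sterol exporter, fell by 0.84 ± 0.067 on incubation (adjusted p = 1.32e-07) and by a further 0.88 ± 0.067 with dexamethasone (adjusted p = 5.45e-07). Apoe, the apolipoprotein of local lipid transport, fell by 1.23 ± 0.081 on incubation (adjusted p = 2.3e-08) and rose by 0.49 ± 0.081 with dexamethasone (adjusted p = 0.000273; 0.0044 and not called with control scaling). Nceh1, a cholesteryl ester hydrolase, fell by 0.60 ± 0.058 on incubation (adjusted p = 8.8e-07). Cyp27a1, a mitochondrial sterol hydroxylase, was also lower, with means of 98.7 on incubated arrays, under the floor, and 409 on fresh arrays (adjusted p = 1.06e-07). Cyp27a1 passed the filter only through fresh arrays, so it could hardly be called higher on incubation.

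Of 12 tested fatty acid synthesis genes, 1 was higher and 8 lower on incubation. Among all genes 36.0% were called higher and 40.7% lower there. With control scaling 4 were higher and 3 lower, where 53.6% of all genes were called higher and 23.8% lower. With dexamethasone 2 were higher and 4 lower, where 22.3% of all genes were called higher and 28.7% lower. With control scaling 0 were higher and 11 lower, where 78.2% of all genes were called lower. Lpin1, a phosphatidate phosphatase, fell by 1.60 ± 0.095 on incubation (adjusted p = 9e-09), and Scd1, a stearoyl-CoA desaturase, fell by 0.60 ± 0.057 (adjusted p = 6.69e-07), while its second probe set rose by 0.56 ± 0.072 (adjusted p = 1.18e-05). Elovl6, a fatty acid elongase, read 667, 723 and 692 on dexamethasone arrays, 1589, 1418 and 1529 on incubated arrays, and 1089.7, 1153 and 1185 on fresh arrays. Its incubated arrays were highest and its dexamethasone arrays lowest, with no overlap. Elovl6 rose by 0.39 ± 0.064 on incubation (adjusted p = 0.000107), where its second probe set changed by -0.09 ± 0.079 (adjusted p = 0.314), and fell by 1.09 ± 0.064 with dexamethasone (adjusted p = 7.57e-08). Fads2, a desaturase of polyunsaturated fatty acids, fell by 0.61 ± 0.085 with dexamethasone (adjusted p = 7.66e-05), and Me1, malic enzyme, rose by 0.65 ± 0.092 (adjusted p = 8.88e-05; not called with control scaling, at 0.17, or in its second probe set, at -0.15). Of 6 tested genes on other branches from isoprenoids, 2 were higher (36.0% of all genes) and 2 lower (40.7% of all genes) on incubation. With control scaling 3 were higher (53.6% of all genes) and 0 lower (23.8% of all genes). With dexamethasone 1 was lower (28.7% of all genes), and 5 with control scaling (78.2% of all genes). Rabggtb, a subunit of the enzyme that prenylates Rab proteins, rose by 0.95 ± 0.059 on incubation (adjusted p = 1.4e-08) and fell by 0.41 ± 0.059 with dexamethasone (adjusted p = 9.35e-05). The probe set standing for Dhdds, which extends isoprenoids toward dolichol, rose by 0.92 ± 0.079 on incubation (adjusted p = 2.82e-07). The second tested probe set of Dhdds was called the opposite way, with means of 128 on incubated arrays, under the floor, and 249.2 on fresh arrays (adjusted p = 8.27e-05).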
